A study of Mus musculus with 96 samples.

Results

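The collagen chains are the genes whose symbol has the form of a collagen alpha chain, that is Col with a type number, the letter a and a chain number. The rule found 44 members among the 15895 genes of the table. By type number they fell into 11 fibrillar chains (types I, II, III, V, XI, XXIV and XXVII), 6 basement membrane chains of type IV and 27 chains of other types. The mean value over all libraries was at least 100 for 25 members and under 20 for 9.

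Primary mouse embryonic fibroblasts (MEFs) from day 13 CF-1 embryos were followed in 2 time courses, Cycle 1 and Cycle 2, by sequencing of polyA RNA. To synchronize them, all cells were held for 36 h in medium with 0.5% fetal calf serum, and serum was then raised to 20% at 0 h. The study's supplement states that such treatment need not synchronize every cell. For Cycle 1, 63 libraries up to 38 h were used, and the one at 12.5 h was not analysed here because no column carried its title. For Cycle 2, 32 libraries up to 27 h were used. The comparison was of every hour after serum with the starved libraries of the same Cycle, taken 1 h before serum and at 0 h. No genotype or drug separated the groups, so time after serum and Cycle were the factors. Cells were collected by scraping in Trizol. The depth recovered from the values lay between 5068424 and 14492754 reads (median 10834236). The library at 24.5 h of Cycle 1 stood furthest from the mean of its neighbouring hours, with a median distance of 0.411 on the log2 scale over genes, and it was not among the hours tested.

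Levels below are the deposited normalized values, in which each library was scaled to a total of 10000000. Hours sampled in both Cycles were averaged within each Cycle on the log2(value + 1) scale over windows of 1 to 3 h, 4 to 8 h, 9 to 14 h, 15 to 20 h and 21 to 27 h. Each window was compared with the starved mean by limma with Cycle as a block, and p-values were adjusted by Benjamini-Hochberg over all 15895 genes with a threshold of 0.05. The labels do not say whether the Cycles came from separate cultures, so p-values measure only the spread between these samples, and it may be technical. In bulk RNA, fewer cells of a type and less RNA per cell cannot be told apart.

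Collagens are extracellular proteins in which alpha chains wind into a triple helix. Fibrillar collagens are secreted as procollagens, trimmed by proteinases and laid down as the cross-linked fibrils of skin, tendon and bone, and fibroblasts are their main source in connective tissue. Type IV forms the network of basement membranes, type VI forms beaded filaments near cells, and fibril-associated types sit on the surface of fibrils. Transforming growth factor beta is the best known inducer of the type I genes.

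The promoters of a falling pair and of a rising member are shown, since their transcripts moved in opposite ways after serum. Each run is the 250 bases before the RefSeq start site, 5′ to 3′ on the coding strand, on GRCm38.p6, from chr6:4505368-4505617 on the plus strand for Col1a2, chr1:45311288-45311537 on the plus strand for Col3a1 and chr9:20815068-20815317 on the minus strand for Col5a3. Capitals mark a match to a searched motif.
Col1a2 promoter: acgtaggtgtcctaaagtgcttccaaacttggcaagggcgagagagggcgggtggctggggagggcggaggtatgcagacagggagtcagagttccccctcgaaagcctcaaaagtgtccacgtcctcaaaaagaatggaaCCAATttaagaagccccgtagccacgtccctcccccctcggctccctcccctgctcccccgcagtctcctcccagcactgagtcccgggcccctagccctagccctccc
Col3a1 promoter: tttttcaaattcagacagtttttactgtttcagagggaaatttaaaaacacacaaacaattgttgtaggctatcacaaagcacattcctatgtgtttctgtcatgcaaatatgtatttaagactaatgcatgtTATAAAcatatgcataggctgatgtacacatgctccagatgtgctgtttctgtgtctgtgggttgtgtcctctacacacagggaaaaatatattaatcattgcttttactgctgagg
Col5a3 promoter: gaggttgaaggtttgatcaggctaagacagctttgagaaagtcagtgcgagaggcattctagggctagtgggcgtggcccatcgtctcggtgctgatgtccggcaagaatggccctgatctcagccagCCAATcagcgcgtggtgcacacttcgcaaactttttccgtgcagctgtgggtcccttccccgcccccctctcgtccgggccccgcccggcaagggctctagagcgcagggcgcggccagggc
The motifs searched on both strands were the CCAAT box (CCAAT), the TATA box (TATAAA), the AP-1 site (TGANTCA) and the CArG box, which serum response factor binds. Col1a2 held CCAAT with its first base 109 bases before the start, Col5a3 held it 122 bases before, and Col3a1 held TATAAA 117 bases before. RefSeq gave 38 promoters for 35 of the members. CCAAT was in 13 of these 38 and in 33.8% of all 32851 promoters of the same length, TATAAA in 5 and in 12.4%, TGANTCA in 1 and in 6.75%, and the CArG box in 1 and in 1.47%. A match of letters is a description and not a bound site.

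Most collagen chains fell after serum, and the fall deepened with time. At 1 to 3 h, 3 members rose and 3 fell, where 37.6% of all genes were called, 9.46% as rises and 28.2% as falls. The 1 to 3 h counts moved with the fit, to 6 and 10 with single libraries (14.4% and 39.5% of all genes), to 4 and 0 with edgeR (13.5% and 14.0%), and to 0 falls without the library of Cycle 2 taken 1 h before serum. At 4 to 8 h, 6 rose and 18 fell, where 49.5% of all genes were called, 17.0% and 32.5% in these directions. At 9 to 14 h, 6 rose and 25 fell, where 45.4% were, 18.0% and 27.4%. At 15 to 20 h, 2 rose and 29 fell, where 47.3% were, 18.9% and 28.4%. At 21 to 27 h, 3 rose and 33 fell, where 49.9% were, 18.7% and 31.2%. Over the whole course the F test called 38 of the 44 members, 6 with a rise and 32 with a fall as their largest change, where it called 71.2% of all genes, 25.5% with a rise and 45.7% with a fall. The median log2 change of the members was -0.12, -0.36, -0.85, -1.16 and -1.40 in the 5 windows in turn, and that of all genes was -0.26, -0.23, -0.14, -0.13 and -0.16. Without the block the members higher and lower were 2 and 1 at 1 to 3 h (6.74% and 20.3% of all genes in that fit), 3 and 11 at 4 to 8 h (12.8% and 24.4%), 3 and 15 at 9 to 14 h (13.0% and 19.5%), 1 and 21 at 15 to 20 h (13.6% and 19.8%) and 1 and 24 at 21 to 27 h (13.9% and 22.9%). Rescaling by TMM moved the median of all genes by 0.22 at 1 to 3 h and 0.15 at 4 to 8 h on the log2 scale, and the share of rises among all calls went from 25.1% to 47.9% and from 34.4% to 47.2%. With it, 3 members were higher and 0 lower at 1 to 3 h, where 15.3% and 16.7% of all genes were, and 7 were higher and 13 lower at 4 to 8 h, where 22.6% and 25.2% were.

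The values were also compared library by library. Between 1 and 3 h, 11 members were below both starved libraries of their Cycle in every library of both Cycles and 5 were above, where 22.4% and 6.59% of all genes were. These counts were 18 and 6 at 4 to 8 h (26.9% and 13.4% of all genes), 23 and 6 at 9 to 14 h (23.9% and 16.9%) and 27 and 3 at 15 to 20 h (23.4% and 17.6%). By 21 to 27 h, 31 members were below both starved libraries of their Cycle in every library of both Cycles, where 25.6% of all genes were, and 2 were above in all of them, where 17.2% were. A fold under 0.5 in every library of that window was found for 14 members and for 6.76% of all genes. A fold above 2 in every library was found for 0 members and for 1.47% of all genes. The 14 were Col1a2, Col3a1, Col11a1 and Col24a1 of the fibrillar class, Col4a4 of type IV, and Col6a5, Col6a6, Col8a2, Col9a2, Col14a1, Col16a1, Col23a1, Col26a1 and Col28a1. From 4 to 8 h to 21 to 27 h, 27 members fell further and 3 rose, where 31.6% of all genes were called, 15.0% as falls and 16.6% as rises. Without the block these counts were 14 and 1, where 8.03% of all genes fell and 8.84% rose.

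Summed over the members, collagen took 6.78% and 7.06% of the table's values in the starved libraries of Cycle 1 and 5.04% and 5.18% in those of Cycle 2. At 21 to 27 h it took 2.14% to 2.41% in Cycle 1, with a median of 2.33%, and 2.55% to 2.75% in Cycle 2, with a median of 2.62%. The groups did not overlap in either Cycle. Col1a1, Col1a2 and Col3a1 alone made up 4.98% and 5.18% of the starved values of Cycle 1 and 3.37% and 3.51% of those of Cycle 2. They made up 1.17% to 1.32% and 1.32% to 1.44% at 21 to 27 h. The type IV share moved the other way at 4 to 8 h, to 0.236% to 0.284% in Cycle 1 from 0.155% and 0.164%, and to 0.241% to 0.279% in Cycle 2 from 0.222% and 0.227%.

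**Figure D1:**
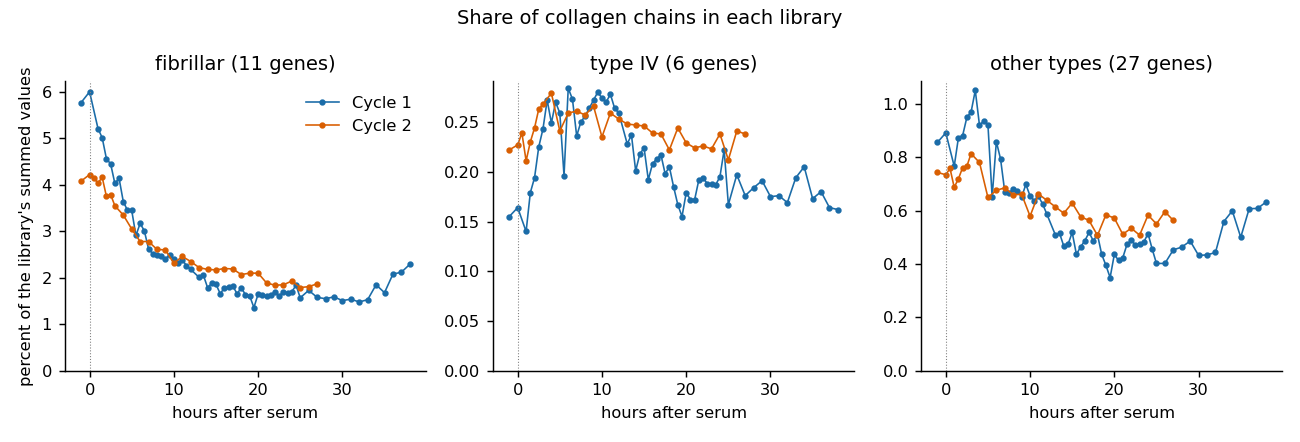
Percent of each library's summed values taken by fibrillar, type IV and other collagen chains (vertical axes, each from 0) against hours after serum, with 1 point per library and a line for each Cycle. The fibrillar share falls from 5.77% and 6.00% to 1.57% to 1.73% in Cycle 1 and from 4.08% and 4.22% to 1.79% to 1.93% in Cycle 2, while the type IV share reaches 0.284% at 6 h in Cycle 1, after 0.14% at 1 h, and lies at 0.241% to 0.279% at 4 to 8 h in Cycle 2.

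Type I and type III collagen are the main fibril proteins of skin, and their genes fell at different rates. Col3a1 (chromosome 1, 45368383 to 45406551, plus strand, NCBIM37), which encodes the type III chain, was at 165046 and 166975 in the starved libraries of Cycle 1 and at 91707 and 94055 in those of Cycle 2. Its values at 4, 5, 6, 7 and 8 h were 97770, 88628, 71573, 58026 and 51151 in Cycle 1 and 68868, 61347, 51858, 49414 and 43615 in Cycle 2. At 9 to 14 h it lay between 22981 and 44311 with a median of 33411 in Cycle 1 and between 26568 and 40502 with a median of 32190 in Cycle 2. By 21 to 27 h it ranged from 10238 to 13446 with a median of 11710 in Cycle 1 and from 12650 to 15245 with a median of 14231 in Cycle 2. Every library from 4 h on was below both starved libraries of its Cycle, and the values were still falling at 27 h in Cycle 1. The fitted log2 change was -1.00 (SE 0.29, adjusted p = 0.0214) at 4 to 8 h, -1.94 (SE 0.29, adjusted p = 0.00148) at 9 to 14 h, -2.66 (SE 0.29, adjusted p = 0.000399) at 15 to 20 h and -3.27 (SE 0.29, adjusted p = 0.000138) at 21 to 27 h. The late value was lower than that of 4 to 8 h by 2.27 on the log2 scale (adjusted p = 0.00116). With TMM rescaling the change at 4 to 8 h was -0.84 and was not called, nor was it with edgeR on the recovered reads.

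Col1a2 (chromosome 6, 4454814 to 4491543, plus strand), the alpha 2 chain of type I, was at 152670 and 154031 in the starved libraries of Cycle 1 and at 109815 and 110355 in those of Cycle 2. At 4 to 8 h it was at 90790, 89340, 79170, 67097 and 62033 in hourly order in Cycle 1 and at 84063, 78462, 68594, 68039 and 65826 in Cycle 2. At 21 to 27 h it lay between 40183 and 43680 with a median of 42883 in Cycle 1 and between 43757 and 48584 with a median of 46820 in Cycle 2. No library of these windows overlapped the starved ones. On the log2 scale the change was -0.80 (SE 0.22, adjusted p = 0.0155) at 4 to 8 h, a call that was lost with TMM rescaling at -0.64, and -1.56 (SE 0.22, adjusted p = 0.000919) at 21 to 27 h.

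Col1a1 (chromosome 11, 94797538 to 94814356, plus strand), the alpha 1 chain of type I, fell less. It was at 106465 and 119519 in the starved libraries of Cycle 1 and at 87123 and 96896 in those of Cycle 2. Its 4 to 8 h values were 63071, 63149, 67818, 56288 and 51760 in Cycle 1 and 76704, 70532, 68037, 68271 and 62740 in Cycle 2. By 21 to 27 h the range was 49247 to 64048 with a median of 53263 in Cycle 1 and 55104 to 63434 with a median of 58691 in Cycle 2, so little changed after 8 h. The log2 change was -0.66 (SE 0.20, adjusted p = 0.0242) at 4 to 8 h and -0.86 (SE 0.20, adjusted p = 0.00824) at 21 to 27 h, and the late value did not pass the test against 4 to 8 h, with a difference of -0.20 (SE 0.20, adjusted p = 0.486). The call at 4 to 8 h was lost without the block, with edgeR, with a pseudocount of 10 and, at -0.50, with TMM rescaling.

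Per kilobase of the longest annotated transcript, the order of the 3 levels reversed in Cycle 1. In Cycle 2 Col1a1 went from lowest to highest, and Col1a2 stayed above Col3a1. In starved cells of Cycle 1 the level per kilobase was highest for Col3a1 at 29800, then Col1a2 at 28700 and Col1a1 at 19100, as medians. In the 21 to 27 h window it was highest for Col1a1 at 8980, then Col1a2 at 8020 and Col3a1 at 2100. Cycle 2 went from 20600 for Col1a2, 16700 for Col3a1 and 15500 for Col1a1 to 9900 for Col1a1, 8760 for Col1a2 and 2560 for Col3a1. The ratio of Col3a1 to Col1a1 per length was 1.49 and 1.65 in the starved libraries of Cycle 1 and 0.192 to 0.291 at 21 to 27 h. In Cycle 2 it was 1.03 and 1.12, then 0.236 to 0.267. The ratio of Col1a1 to Col1a2 went from 0.629 and 0.7 to between 1.03 and 1.44 in Cycle 1 and from 0.715 and 0.792 to between 1.02 and 1.22 in Cycle 2. These ratios were not tested, and they rest on the annotated transcript lengths.

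Type V collagen takes part in the assembly of type I fibrils, and its 3 genes moved apart. Col5a2 (chromosome 1, 45431166 to 45560127, minus strand), which lies beside Col3a1 on the other strand, was at 36051 and 35378 in the starved libraries of Cycle 1 and at 35054 and 34793 in those of Cycle 2. Late in the course, at 21 to 27 h, it was between 19955 and 23606 in Cycle 1 and between 25615 and 28537 in Cycle 2, a log2 change of -0.54 (SE 0.15, adjusted p = 0.0188) beside the -3.27 of Col3a1. Col5a1 went from 23666 and 26343 to between 11375 and 12337 in Cycle 1 and from 20486 and 21598 to between 12644 and 13527 in Cycle 2. Limma gave a log2 change of -0.33 (SE 0.14, adjusted p = 0.0773) at 4 to 8 h and -0.88 (SE 0.14, adjusted p = 0.00161) at 21 to 27 h. Without the block the late call of Col5a2 was lost, as it was with edgeR, and that of Col5a1 was kept.

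Col5a3 (chromosome 9, 20574494 to 20619511, minus strand), the alpha 3 chain of type V, rose early and steeply and then came down again. It was at 1844 and 2072 in the starved libraries of Cycle 1 and at 687 and 749 in those of Cycle 2. The values at 4, 5, 6, 7 and 8 h were 11082, 11335, 11143, 9871 and 8368 in Cycle 1 and 8223, 9908, 9351, 8805 and 7757 in Cycle 2. Both Cycles were far above their starved levels there and differed little from each other. The highest value was 11483 at 3.5 h in Cycle 1, 5.86 times the starved mean, and 9908 at 5 h in Cycle 2, 13.8 times its lower starved mean. The fitted log2 change was 1.66 (SE 0.34, adjusted p = 0.00536) at 1 to 3 h, 3.00 (SE 0.34, adjusted p = 0.000302) at 4 to 8 h and 2.04 (SE 0.34, adjusted p = 0.00208) at 9 to 14 h. By 21 to 27 h it lay between 655 and 1172 in Cycle 1, below both starved libraries, and between 838 and 1039 in Cycle 2, above both. The mean change there was -0.36 (SE 0.34, adjusted p = 0.384). From 4 to 8 h to 21 to 27 h it fell by 3.37 on the log2 scale (SE 0.34, adjusted p = 0.000382). Per length it stood at 0.107 and 0.108 of Col5a1 in starved cells of Cycle 1 and at 0.673 to 0.818 of it at 4 to 8 h, and in Cycle 2 at 0.0461 and 0.0476, then 0.571 to 0.781.

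Among the minor fibrillar chains, Col11a1 and Col24a1 fell with Col3a1. Col11a1, a chain of the fibrils of cartilage, went from 4852 and 5219 to between 442 and 661 at 21 to 27 h in Cycle 1 and from 3255 and 3230 to between 574 and 632 in Cycle 2. Its log2 change was -1.50 (SE 0.26, adjusted p = 0.00192) at 4 to 8 h and -2.81 (SE 0.26, adjusted p = 0.000144) at 21 to 27 h. Col24a1 went from 460 and 425 to between 11.8 and 28.2 in Cycle 1 and from 374 and 364 to between 36.3 and 53.7 in Cycle 2, a log2 change of -3.65 (SE 0.38, adjusted p = 0.000254). Its library at 20 h of Cycle 2 stood at 239 between 34.9 at 19 h and 53.7 at 21 h. Col27a1 was at 616 and 613 in starved cells of Cycle 1 and at 224 and 253 in those of Cycle 2, reached 1393 at 3.5 h and 668 at 3 h, and was at 75.7 to 130 and 76.4 to 139.5 at 21 to 27 h. The early change of Col27a1 did not pass the test (0.81, SE 0.46, adjusted p = 0.197), and its late change did (-1.90, SE 0.46, adjusted p = 0.00953). Col11a2, with a mean value of 28.0, was lower by 1.65 at 21 to 27 h (adjusted p = 0.00641).

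Col2a1, the chain of type II collagen of cartilage, was the fibrillar member that was higher at the end. It was at 46.6 and 61.1 in the starved libraries of Cycle 1 and between 206 and 293 at 21 to 27 h, and at 23.8 and 25.5 in those of Cycle 2 and between 29.4 and 50.7. Both late groups lay above their starved libraries, far more so in Cycle 1. The change in log2 value was 1.46 (SE 0.49, adjusted p = 0.0394) at 9 to 14 h and 1.41 (SE 0.49, adjusted p = 0.0416) at 21 to 27 h. Neither change was called without the block, with a pseudocount of 10 or without the variance trend. The library at 11 h of Cycle 2 stood at 124 between 41.0 at 10 h and 34.5 at 12 h. The summed cartilage markers first rose, to 978 to 1580 at 1 to 3 h in Cycle 1 and to 688 to 862.5 in Cycle 2. At 9 to 14 h they were at 629 to 938 in Cycle 1, overlapping starved cells. In Cycle 2 they were then at 251 to 362, below starved cells. By 21 to 27 h they were lower in both Cycles, as given below. The part of these markers in the rise of Col2a1 was not tested.

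**Figure D2:**
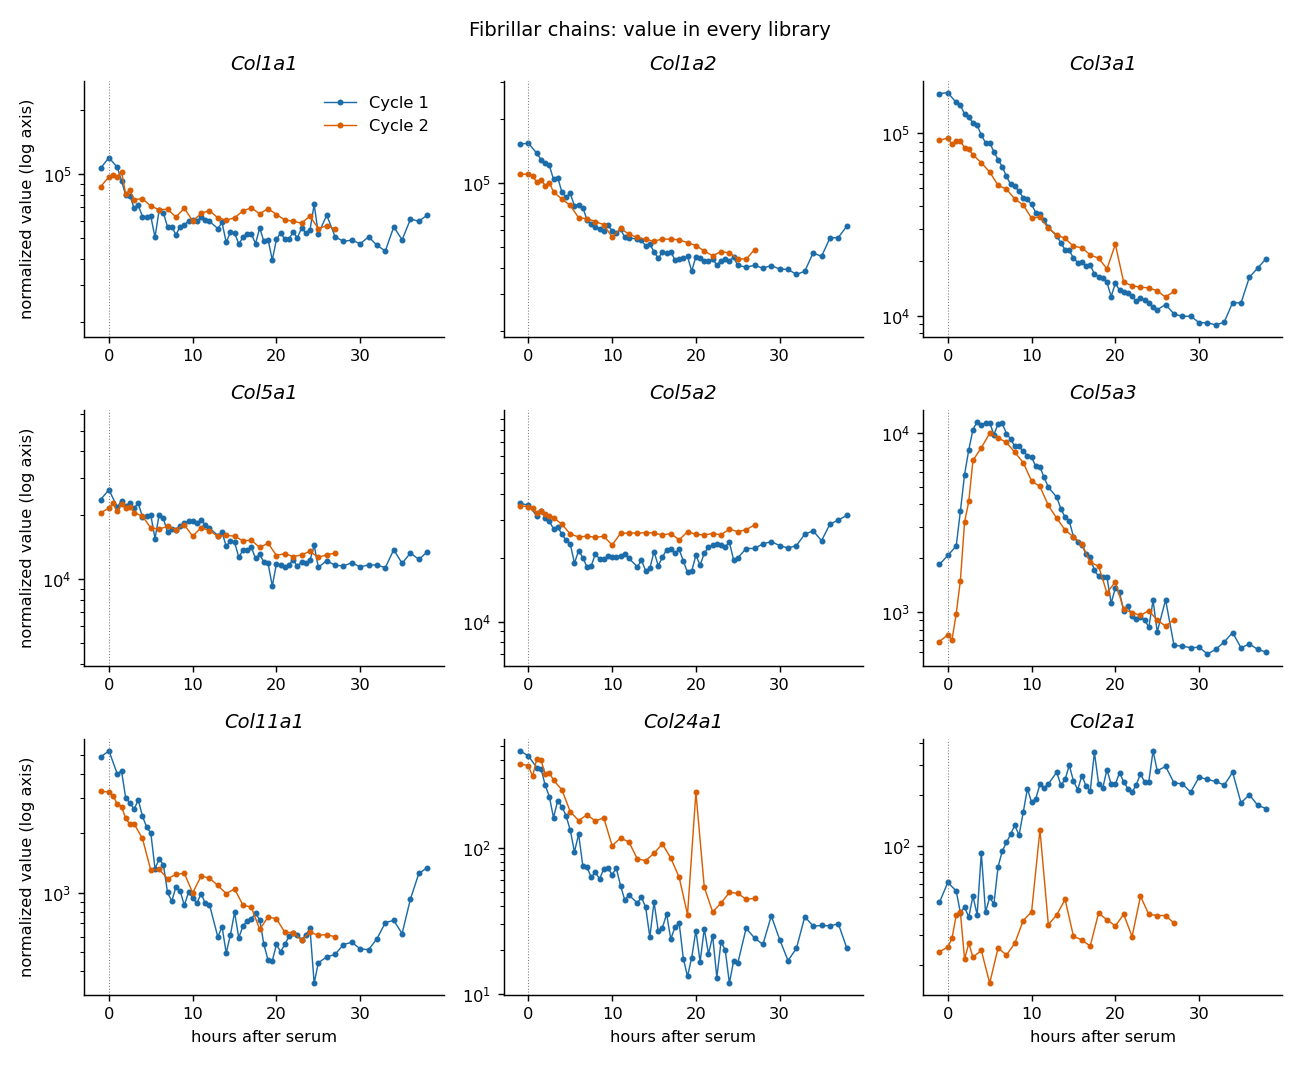
Normalized value (log axis) of 9 fibrillar collagen genes against hours after serum, 1 point per library and a line for each Cycle. Col3a1 falls from 165046 and 166975 to 10238 at 27 h in Cycle 1, Col5a3 rises to 11483 at 3.5 h and returns, and Col2a1 rises in Cycle 1 far more than in Cycle 2.

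The 2 abundant type IV chains and the 4 others moved in opposite directions. Col4a1 (chromosome 8, 11198423 to 11312826, minus strand) and Col4a2 (chromosome 8, 11312805 to 11449287, plus strand) form the common basement membrane trimer and are read from start sites 21 bases apart, on opposite strands. Col4a1 was at 6941 and 7412 in starved cells of Cycle 1 and at 10941 and 11389 in those of Cycle 2. At 4 to 8 h it was at 13407, 13993, 15143, 12384 and 13652 in Cycle 1 and at 14403, 12247, 13316, 13226 and 13017 in Cycle 2, above the starved libraries throughout. In the 21 to 27 h window it was between 7926 and 9435 with a median of 8907 in Cycle 1 and between 10702 and 11957 with a median of 11371 in Cycle 2, where it overlapped the starved values. Limma gave a log2 change of 0.59 (SE 0.17, adjusted p = 0.0215) at 4 to 8 h, 0.52 (SE 0.17, adjusted p = 0.0385) at 9 to 14 h and 0.16 (SE 0.17, adjusted p = 0.462) at 21 to 27 h.

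Col4a2 was at 5193 and 5312 in starved cells of Cycle 1 and at 7199 and 7355 in those of Cycle 2. It was at 7317, 7895, 8782, 7742 and 7878 at 4 to 8 h in Cycle 1 and at 9157, 8329, 8727, 8892 and 8593 in Cycle 2, again above the starved libraries. The log2 change was 0.43 (SE 0.14, adjusted p = 0.0295) at 4 to 8 h and 0.46 (SE 0.14, adjusted p = 0.0239) at 9 to 14 h. The F test over the course called neither gene (adjusted p = 0.0816 for Col4a1 and 0.0823 for Col4a2), and none of their window calls held without the block. Per length, Col4a1 stood at 1.10 to 1.79 times Col4a2 in all windows of Cycle 1 and at 1.36 to 1.55 times in Cycle 2. The short overlap of the pair cannot be split between them, since the authors counted reads on both strands.

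Col4a5, a chain of the basement membranes of kidney and other tissues, was at 923 and 1057 in starved cells of Cycle 1 and at 720 and 637 in those of Cycle 2. It was between 303 and 558 at 4 to 8 h in Cycle 1 and between 310 and 451 in Cycle 2. Late in the course, at 21 to 27 h, it was between 420 and 582 and between 433 and 606, so it remained lower in every library. On the log2 scale the change was -1.06 (SE 0.20, adjusted p = 0.00317) at 4 to 8 h, -1.40 (SE 0.20, adjusted p = 0.00123) at 9 to 14 h and -0.70 (SE 0.20, adjusted p = 0.0201) at 21 to 27 h. Col4a6, its neighbour on the X chromosome, had a mean value of 62.0 and changed by -1.28 at 21 to 27 h (adjusted p = 0.00424). Col4a3 and Col4a4, neighbours on chromosome 1, had mean values of 9.69 and 6.87 and changed by -1.10 (adjusted p = 0.0112) and -1.51 (adjusted p = 0.00507). In Cycle 1 the 21 to 27 h values of Col4a3, 4.02 to 17.8, overlapped its starved values of 15.0 and 24.6. None of the 6 type IV genes passed the test between 4 to 8 h and 21 to 27 h.

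**Figure D3:**
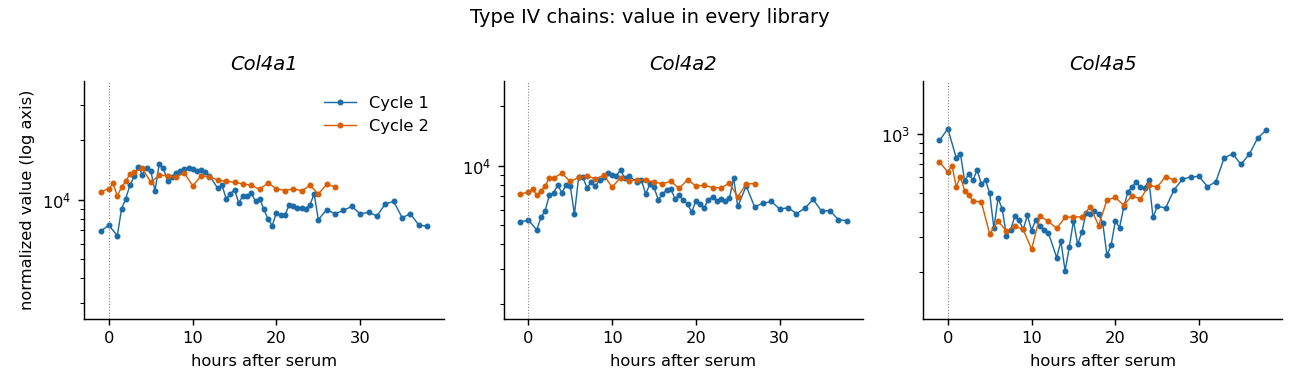
Normalized value (log axis) of Col4a1, Col4a2 and Col4a5 against hours after serum, 1 point per library and a line for each Cycle. Col4a1 and Col4a2 rise in the first hours, from 6941 and 7412 to 15143 at 6 h for Col4a1 in Cycle 1, while Col4a5 falls to 201 at 14 h in Cycle 1 and climbs to 1041 at 38 h.

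Type VI collagen is built of the chains of Col6a1, Col6a2 and Col6a3, and these 3 genes kept near or above their starved level for some hours before they declined. Col6a1 was at 17686 and 17102 in starved cells of Cycle 1 and at 9400 and 9616 in those of Cycle 2. It reached 22830 at 2.5 h in Cycle 1 and 14085 at 4 h in Cycle 2. By 21 to 27 h it was between 6902 and 8291 with a median of 7187 in Cycle 1 and between 7076 and 7529 with a median of 7270 in Cycle 2, below the starved values in every library. The change in log2 value was 0.19 (SE 0.24, adjusted p = 0.513) at 4 to 8 h and -0.82 (SE 0.24, adjusted p = 0.0191) at 21 to 27 h. Col6a3 was at 12346 and 13222 in Cycle 1 and 8540 and 8856 in Cycle 2, had its highest value of 21393 at 3.5 h and of 13227 at 3 h, and was between 5285 and 6923 with a median of 6254 and between 6604 and 7710 with a median of 7005 at 21 to 27 h. Its late change was -0.69 (SE 0.22, adjusted p = 0.0298). Col6a2, which lies beside Col6a1, changed by 0.32 (SE 0.23, adjusted p = 0.284) at 4 to 8 h and by -0.87 (SE 0.23, adjusted p = 0.0150) at 21 to 27 h. From 4 to 8 h to 21 to 27 h all 3 fell, Col6a1 by 1.02 (adjusted p = 0.0134), Col6a2 by 1.19 (adjusted p = 0.00688) and Col6a3 by 0.92 (adjusted p = 0.0158). Without the block the late calls of Col6a1 and Col6a2 were lost, against starved cells and against 4 to 8 h, and with TMM rescaling or edgeR the call of Col6a3 against starved cells was.

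The other type VI genes, Col6a4, Col6a5 and Col6a6, which lie together on chromosome 9, were low and fell further. Col6a6 went from 143 and 187 to between 0.987 and 5.12 at 21 to 27 h in Cycle 1 and from 64.4 and 71.3 to between 2.32 and 11.9 in Cycle 2 (log2 change -4.46, SE 0.44, adjusted p = 0.000214). Col6a5 went from 111 and 94.8 to between 1.97 and 7.04 in Cycle 1 and from 19.1 and 20.6 to between 0.932 and 4.88 in Cycle 2 (log2 change -3.59, SE 0.34, adjusted p = 0.000174). Col6a4, with a mean value of 3.94, changed by -2.09 (adjusted p = 0.00116). The late values are near those of 1 to a few reads, and the size of these changes depends on the pseudocount of 1.

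Of the fibril-associated chains, Col12a1 was the most abundant and Col14a1 changed most. Col12a1 was at 14218 and 16376 in starved cells of Cycle 1 and at 29159 and 27825 in those of Cycle 2. At 4 to 8 h it lay between 10303 and 15330 with a median of 13503 in Cycle 1 and between 15493 and 21744 with a median of 20829 in Cycle 2. It was between 9851 and 19537 with a median of 15411 at 21 to 27 h in Cycle 1, overlapping the starved values, and between 20257 and 26505 with a median of 23222 in Cycle 2, below them. No window passed the test, with log2 changes from -0.38 (SE 0.15, adjusted p = 0.0584) at 4 to 8 h to -0.15 (SE 0.15, adjusted p = 0.424) at 15 to 20 h. Col14a1, its close relative in structure, went from 4288 and 4360 to between 177 and 296 at 21 to 27 h in Cycle 1 and from 1567 and 1560 to between 158 and 213 in Cycle 2. The log2 change of Col14a1 was -1.16 (SE 0.23, adjusted p = 0.00398) at 4 to 8 h and -3.69 (SE 0.23, adjusted p = 3.54e-05) at 21 to 27 h, and the earlier of these calls was lost without the block. Col16a1 went from 3594 and 3512 to between 869 and 1276 and from 1883 and 2070 to between 833 and 953, a log2 change of -1.52 (SE 0.21, adjusted p = 0.000838).

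Lower fibril-associated members moved both ways. Col20a1 rose within the first hours, from 25.6 and 30.1 to 151 at 2.5 h in Cycle 1 and from 18.1 and 19.8 to 118 at 3 h in Cycle 2. Its log2 change was 1.73 (SE 0.31, adjusted p = 0.00346) at 1 to 3 h and -1.64 (SE 0.31, adjusted p = 0.00358) at 21 to 27 h. Col19a1 went the other way, with -1.47 (SE 0.33, adjusted p = 0.00657) at 4 to 8 h and 1.10 (SE 0.33, adjusted p = 0.0223) at 21 to 27 h. Its late values were 12.1 to 29.6 in Cycle 1 against 15.0 and 9.12 in starved cells, and 22.3 to 35.1 in Cycle 2 against 15.3 and 5.77. The late call of Col19a1 was lost without the 0 h library of Cycle 1 and without the block. Col9a1 and Col9a2, cartilage chains of type IX with mean values of 6.21 and 30.7, changed by -1.98 (adjusted p = 0.00144) and -2.43 (adjusted p = 0.000827) at 21 to 27 h, and the call of Col9a2 was lost without the block.

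The short-chain collagens of type VIII, known from the membrane beneath the corneal endothelium and from vessel walls, parted over time. Col8a1 was at 1889 and 2013 in starved cells of Cycle 1 and at 4348 and 4082 in those of Cycle 2. At 4 to 8 h it was at 884, 822, 867, 699 and 1015 in Cycle 1 and at 2219, 1613, 1627, 1678 and 1579 in Cycle 2. In the 21 to 27 h window it had climbed back to between 1822 and 2741 in Cycle 1, overlapping the starved values, and to between 2455 and 3112 in Cycle 2, still below them. The fitted log2 change was -1.24 (SE 0.25, adjusted p = 0.00402) at 4 to 8 h and -0.16 (SE 0.25, adjusted p = 0.605) at 21 to 27 h, and the rise between these windows was 1.08 (SE 0.25, adjusted p = 0.0133). Neither the fall nor the return was called without the block. Col8a2 went from 1679 and 1726 to between 164 and 224 at 21 to 27 h in Cycle 1 and from 731 and 658 to between 72.2 and 89.2 in Cycle 2. Most of that fall was reached by 4 to 8 h, where its log2 change was -2.35 (SE 0.17, adjusted p = 5.91e-05), and it was -3.11 (SE 0.17, adjusted p = 2.54e-05) at 21 to 27 h. Per length the ratio of Col8a2 to Col8a1 went from 1.01 and 1.05 to between 0.0802 and 0.121 in Cycle 1 and from 0.190 and 0.198 to between 0.0289 and 0.0400 in Cycle 2.

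The multiplexins Col15a1 and Col18a1 are chains of basement membrane zones, and Col18a1 is the precursor of endostatin. Col18a1 was at 1657 and 1659 in starved cells of Cycle 1 and at 606 and 690 in those of Cycle 2. It rose to 3612, 3928, 3860, 3414 and 2711 at 4 to 8 h in Cycle 1 and to 1246, 1303, 1240, 1145 and 989 in Cycle 2. Late in the course, at 21 to 27 h, it was down to between 697 and 897 and between 319 and 405, below the starved libraries of each Cycle. On the log2 scale the change was 0.97 (SE 0.14, adjusted p = 0.000837) at 4 to 8 h and -0.94 (SE 0.14, adjusted p = 0.00112) at 21 to 27 h, and both calls were lost without the block. Col15a1 was at 1195 and 1322 in starved cells of Cycle 1 and at 380 and 394 in those of Cycle 2, and at 255 to 387 and 142 to 199 at 21 to 27 h. It changed by -0.25 (SE 0.21, adjusted p = 0.336) at 4 to 8 h and by -1.66 (SE 0.21, adjusted p = 0.000581) at 21 to 27 h, the latter lost without the block.

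Col7a1, the chain of the anchoring fibrils beneath the epidermis, rose and stayed up. It was at 144 and 143 in starved cells of Cycle 1 and at 158 and 200 in those of Cycle 2. It was between 312 and 369 at 15 to 20 h in Cycle 1 and between 305 and 470 in Cycle 2, above all starved values. By 21 to 27 h it was between 253 and 371 and between 257 and 350. Its log2 change was 0.35 (SE 0.16, adjusted p = 0.0910) at 4 to 8 h, 1.00 (SE 0.16, adjusted p = 0.00169) at 9 to 14 h, 1.15 (SE 0.16, adjusted p = 0.000885) at 15 to 20 h and 0.88 (SE 0.16, adjusted p = 0.00250) at 21 to 27 h.

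The transmembrane collagens and the remaining types were low. Col23a1 was at 305 and 273 in starved cells of Cycle 1 and at 153 and 156 in those of Cycle 2, and between 25.1 and 74.0 and between 49.0 and 74.1 at 21 to 27 h (log2 change -1.98, SE 0.29, adjusted p = 0.00116). Col17a1, a chain of the hemidesmosome of epithelia, rose from 12.0 and 18.2 to between 41.4 and 59.1 at 4 to 8 h in Cycle 1 and from 5.72 and 9.89 to between 30.0 and 49.5 in Cycle 2 (log2 change 1.97, SE 0.25, adjusted p = 0.000514), and the groups did not overlap. In that window the summed epithelial markers were also higher, at 417 to 685 in Cycle 1 against 299 and 307 in starved cells. In Cycle 2 they were at 213 to 318 against 136 and 138. At 1 to 3 h these sums were already at 397 to 680 and 180 to 268.5, while Col17a1 overlapped its starved values. At 9 to 14 h they were at 298 to 387 and 134 to 212, overlapping starved cells, while Col17a1 stayed above its own. The part of these markers in the rise was not tested. Col13a1 and Col25a1, with mean values of 3.57 and 7.96, were lower at 21 to 27 h by 1.82 (adjusted p = 0.0220) and 1.89 (adjusted p = 0.00584), and the call of Col13a1 was lost without the block, with edgeR and with a pseudocount of 10. Col26a1 went from 233 and 264 to between 1.00 and 11.7 at 21 to 27 h in Cycle 1 and from 40.1 and 38.7 to between 0.979 and 6.30 in Cycle 2 (log2 change -4.37, SE 0.48, adjusted p = 0.000318). Col28a1, with a mean value of 25.5, changed by -2.09 (adjusted p = 0.000409), a call lost without the block.

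**Figure D4:**
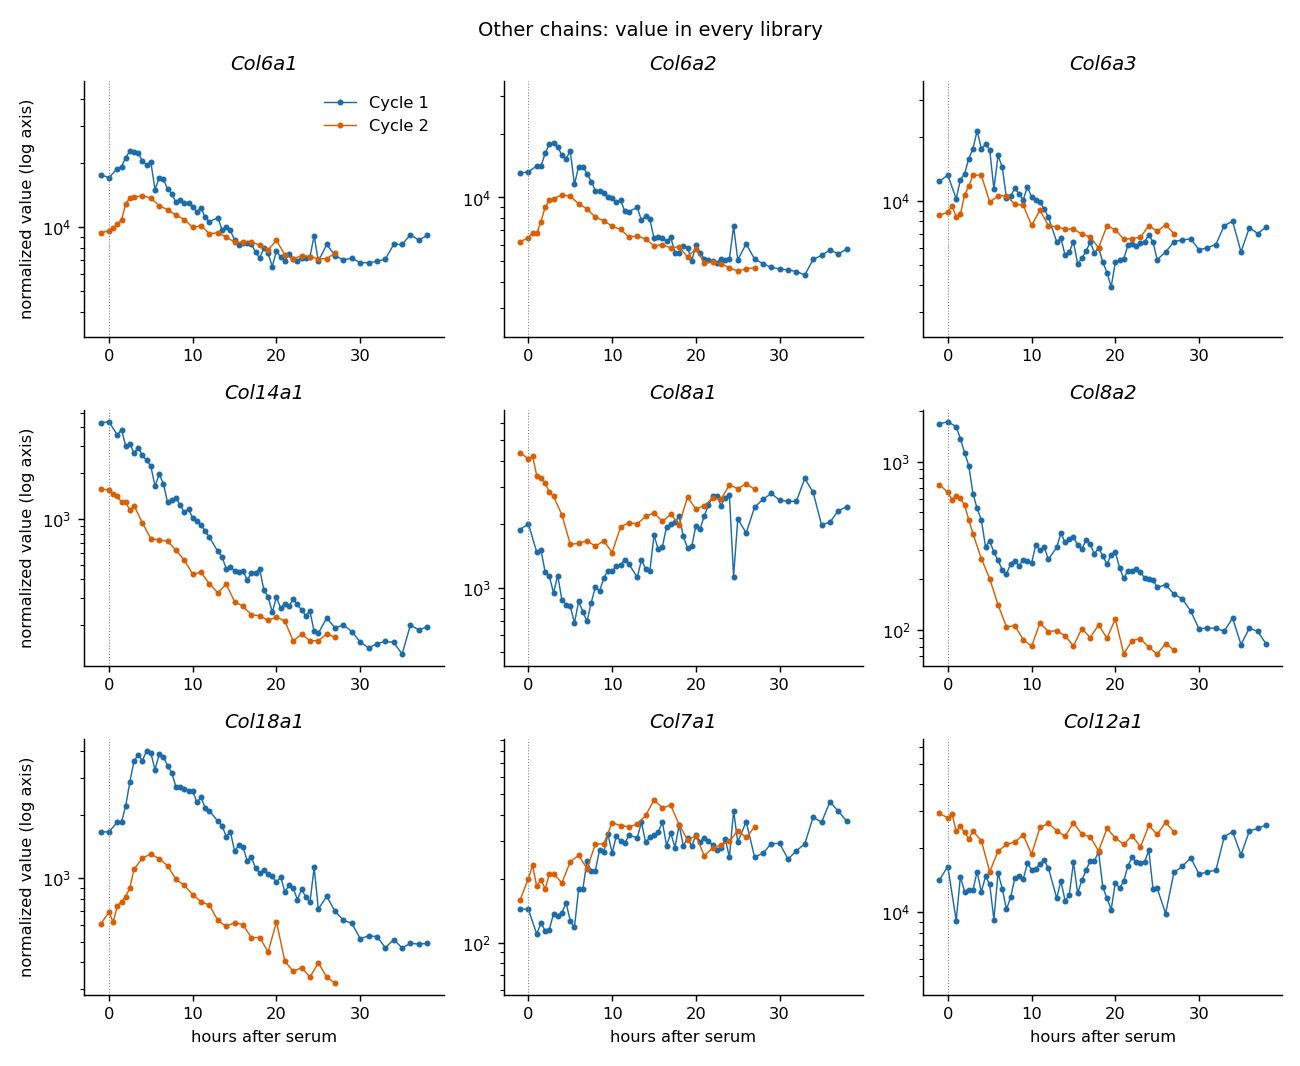
Normalized value (log axis) of 9 collagen genes of other types against hours after serum, 1 point per library and a line for each Cycle. Col14a1 and Col8a2 fall, Col8a1 falls and returns, Col18a1 reaches 4014 at 4.5 h in Cycle 1 before it declines, and Col7a1 rises to 470 at 15 h in Cycle 2.

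By class, the median log2 change at 4 to 8 h was -0.57 over the 11 fibrillar genes, -1.10 over the 6 type IV genes and -0.25 over the 27 others, beside -0.23 over all genes. Among members with a mean value of at least 50 those of type IV and the others were -0.32 and 0.19, so the direction of the others reversed. In the 21 to 27 h window these medians were -1.56, -0.90 and -1.64, beside -0.16 over all genes. In the fibrillar class 1 gene was higher and 9 lower at 21 to 27 h, in type IV 0 were higher and 4 lower, and among the others 2 were higher and 20 lower, where 18.7% of all genes were higher and 31.2% lower. The class medians give low and abundant members the same weight. Over the 25 members with a mean value of at least 100 the median was -0.33 at 4 to 8 h and -0.87 at 21 to 27 h, with 2 higher and 18 lower at the end, beside the same shares of all genes.

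**Figure D5:**
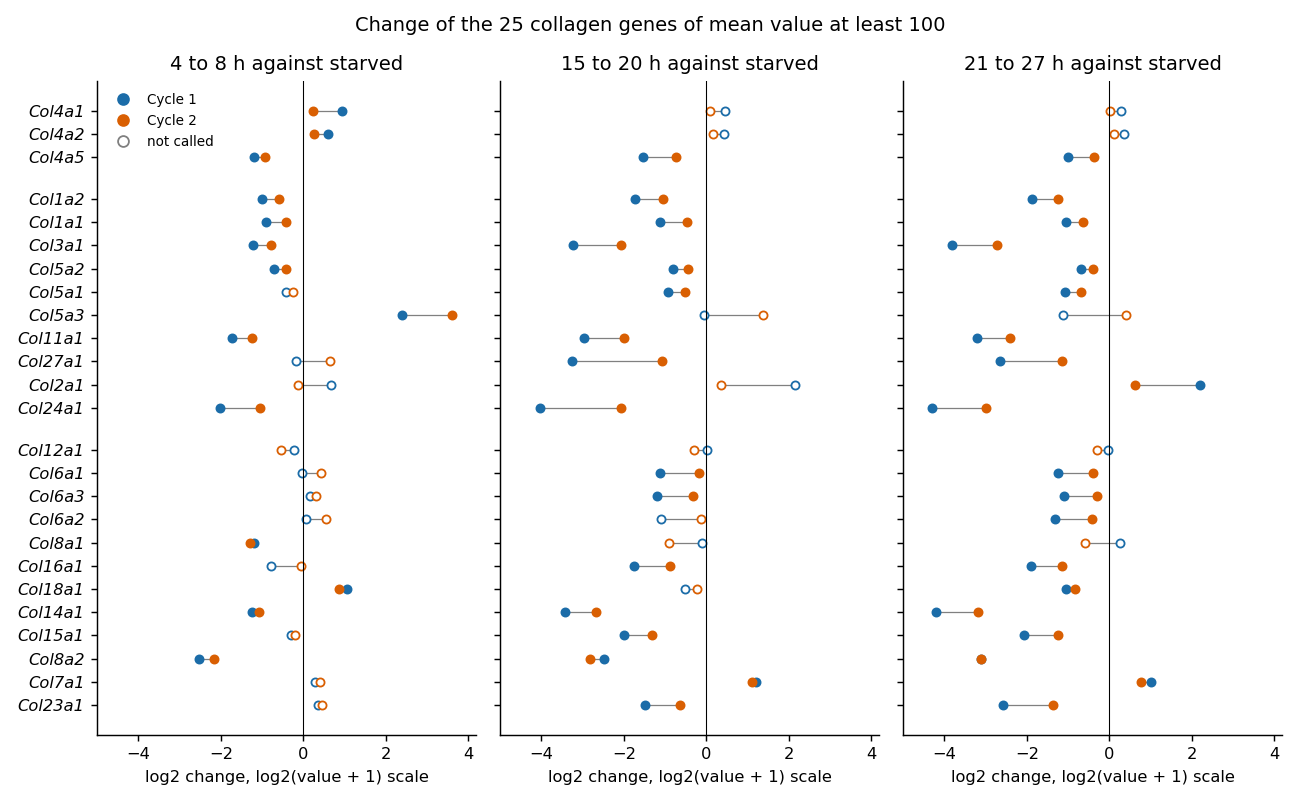
Log2 change against starved cells of the 25 collagen genes with a mean value of at least 100, at 4 to 8 h, 15 to 20 h and 21 to 27 h, with 1 point for each Cycle joined by a grey line and open points where limma did not call the gene. Genes are grouped as type IV, fibrillar and other from the top, and 18 of the 25 are called lower at 21 to 27 h and 2 higher.

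After 27 h only Cycle 1 was sampled, so the following values have no replicate. Col3a1 was between 8902 and 9951 at 28 to 33 h and between 11740 and 20570 at 34 to 38 h, with 20570 at 38 h, 0.124 of its starved mean. Col1a2 went from between 37110 and 40870 to between 45090 and 62470, and Col11a1 was at 1338 at 38 h after 515 to 706 at 28 to 33 h. Col14a1 stayed between 129 and 201 at 34 to 38 h, and Col5a3 stayed between 601 and 772. For 6 of the 44 members every library of 34 to 38 h was above every library of 28 to 33 h, near the 11.8% of all genes. For 0 members every library was below, where this held for 5.97% of all genes. The 6 were Col1a2, Col3a1, Col6a1, Col6a2, Col7a1 and Col10a1, the last a cartilage chain named here after its values were seen, which was at 10.5 and 12.8 in the starved libraries of Cycle 1 and at 279 at 38 h. In Cycle 2 Col10a1 was at 140 and 148 in starved cells and between 101 and 161 at 21 to 27 h, overlapping them, and limma called it in no window. The collagen share of the values was 2.35% to 3.08% at 34 to 38 h, above the 2.09% to 2.28% of 28 to 33 h. It overlapped the 2.14% to 2.41% of 21 to 27 h and was under the starved 6.78% and 7.06%.

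Genes that modify, fold, process and cross-link collagen moved in both directions. Of the 31 in the table, 5 rose and 8 fell at 4 to 8 h, near the 17.0% and 32.5% of all genes, and 5 rose and 16 fell at 21 to 27 h, where 18.7% and 31.2% of all genes did, with median log2 changes of -0.01 and -0.37. Serpinh1, the collagen chaperone of the endoplasmic reticulum, changed by -0.29 (SE 0.14, adjusted p = 0.116) at 4 to 8 h, and P4hb, a subunit of prolyl hydroxylase, by 0.00 (SE 0.14, adjusted p = 0.983). Lox, which begins cross-linking, fell by 0.53 (SE 0.19, adjusted p = 0.0454). Its log2 change was -0.29 in Cycle 1 and -0.78 in Cycle 2, and the F test over the course did not call it (adjusted p = 0.0645). Pcolce2, an enhancer of procollagen C-proteinase, rose by 2.50 (SE 0.56, adjusted p = 0.00683) and Tll1, a proteinase of that kind, by 2.32 (SE 0.34, adjusted p = 0.000934). The rise of Pcolce2 was 3.74 in Cycle 1 and 1.26 in Cycle 2, and that of Tll1 was 3.175 and 1.47. Plod3, a lysyl hydroxylase with glycosyltransferase activity, rose by 0.70 (SE 0.17, adjusted p = 0.0101). The largest falls at 4 to 8 h were those of Colgalt2 (-2.18, adjusted p = 0.0178, mean value 2.46), Adamts3, which trims the amino end of procollagen (-2.06, adjusted p = 0.00106), and the lysyl hydroxylase Plod2 (-1.26, adjusted p = 0.000634).

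Of 9 collagen receptor genes in the table, 1 rose and 4 fell at 4 to 8 h, where 17.0% and 32.5% of all genes did, and 2 rose and 4 fell at 21 to 27 h, where 18.7% and 31.2% did. Itga2, an integrin chain that binds type I collagen, rose by 2.25 (SE 0.40, adjusted p = 0.00235) at 4 to 8 h. Its rise was 3.23 in Cycle 1 and 1.27 in Cycle 2. The integrin chains Itga1 and Itga11 fell by 1.54 (adjusted p = 0.000281) and 1.26 (adjusted p = 0.00331), and Ddr2, a receptor kinase for fibrillar collagen, by 0.71 (SE 0.11, adjusted p = 0.00151). Alternative fits were compared gene by gene for the collagen chains only, not for the modifying and receptor genes.

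All 8 fibroblast markers had a mean value of at least 10, led by Vim at 48190, and their sum was 100100 and 101400 in starved cells of Cycle 1 and 77760 to 88210 at 21 to 27 h, and 89440 and 97160 and then 72600 to 80100 in Cycle 2. The lists of other cell types were far lower. Low genes had been removed, and every gene left reached at least 3.969 in some library. No marker in the table could therefore be at 0 in every library. Of the listed markers, Matn1, Bglap, Myf5 and Hbb-b1 were not in the table. From starved cells to 21 to 27 h the endothelial sum of 6 markers went from 259 and 292 to 56.3 to 97.9 in Cycle 1 and from 217 and 274 to 90.3 to 117 in Cycle 2. The cartilage sum of 4 markers went from 652 and 759 to 317 to 396 and from 394 and 429 to 183 to 265. The sum of 4 macrophage and blood markers went from 207 and 259 to 139 to 191 and from 367 and 436 to 307 to 387, and that of 5 epithelial markers from 299 and 307 to 122 to 282 and from 136 and 138 to 80.0 to 138. The 4 bone markers went from 306 and 367 to 417 to 693 and from 327 and 364 to 475 to 633. The 3 skeletal muscle markers were at 609 and 697 and then 839 to 1260 in Cycle 1 and at 1658 and 1667 and then 1048 to 1310 in Cycle 2. The 5 neural markers, led by Nes, were higher late in both Cycles, going from 761 and 766 to 1696 to 3241 and from 1145 and 1175 to 1757 to 1920. Their part in the changes of the collagen chains was not tested.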

How the data were processed

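Libraries were prepared with a stranded polyA kit and read as single ends of 50 bases, 12 libraries to a lane. According to the labels and the study's methods, the authors aligned reads to mm9 with STAR, counted exon reads on both strands with HOMER, scaled each library to a total of 10000000, removed low genes and averaged some genes over transcripts, and deposited the resulting normalized signal per gene. Among the members, the values of Col2a1, Col4a5, Col6a3, Col6a6, Col18a1 and Col25a1 had the form of such averages. Their levels may therefore not be totals over the gene. Of 96 columns, 95 matched a library by its title, and 1 column of values matched none and was not used.

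Windows were averaged per Cycle on log2(value + 1), which gave 12 values per gene, and were fitted with limma 3.58.1 in R 4.3.3 with a variance trend and Cycle as a block. The block comes from the labels, in which a Cycle number marks 1 time course, and deviations of windows of the same Cycle correlated at 0.16 or more over 15 pairs, with a median of 0.442. P-values were adjusted by Benjamini-Hochberg over 15895 genes. The values gave whole reads for 94.2% to 96.2% of the low values (under 20 reads, tolerance 0.05 reads) in 93 columns, and edgeR 4.0.16 on those reads called 10751 genes over the course. Precision rests on 2 Cycles.

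Genes were named with values where the mean value was at least 100, and lower members where the F test called them. The members and lists were chosen with earlier results of these data known. The fit with the variance trend was also run on simulated data. The fits without the trend and without the 1, 5 and 26 h libraries were chosen after seeing the data. Other alternatives were the pseudocount, a filter on low values, TMM rescaling, no replicate block, single libraries and leaving out libraries. Promoters and coordinates were read with Python 3.11.15.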

Additional observations from a re-analysis of the deposited data

Results flagged for a closer look

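Among the 4 starved libraries, the value of Col4a4 at 0 h of Cycle 1 stood apart from the others, with a gap of 0.946 of the whole range. The 4 values were 18.036 and 16.412 in Cycle 1 and 18.124 and 18.129 in Cycle 2. Col6a4 had a gap of 0.877 of the range, with 5.723 in 1 library of Cycle 2 and 7.515, 7.294 and 7.416 in the others. A gap past the critical value used here arises by chance in about 1 in 20 groups. Both genes were low, with mean values of 6.87 for Col4a4 and 3.94 for Col6a4, and the gaps are of a few reads.

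Col5a3 at 21 to 27 h was below both starved libraries in every library of Cycle 1 and above both in every library of Cycle 2, and its log2 change in Cycle 1 minus that in Cycle 2 was -1.54. This difference was not tested, since each Cycle gave 1 value per window.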

How the results depend on the processing

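Of 158 changes called among the members, 90 kept their direction, and their call under every alternative that could give one. The call was lost under 1 or more for 68, and 0 changed sign. Each Cycle alone was compared by sign only. Members with a mean value under 50 were not in the filtered fit. Without the replicate block, 1 member was lower at 1 to 3 h, 3 were higher and 11 lower at 4 to 8 h, 3 higher and 15 lower at 9 to 14 h, 1 higher at 15 to 20 h and 1 at 21 to 27 h, and 1 rose and 14 fell from 4 to 8 h to 21 to 27 h. A mean value of at least 50, which leaves out the low members by construction, gave 1, 11, 15, 16 and 19 lower in the 5 windows, 1 higher at 15 to 20 h, 16 falling from 4 to 8 h to 21 to 27 h and 22 called over the course. The medians were then -0.87 over all members at 21 to 27 h, -0.32 and -0.27 for type IV at 4 to 8 h and 21 to 27 h, and 0.19 and -0.87 for the other types. With TMM 0 members were lower at 1 to 3 h, and the medians at 4 to 8 h were -0.21 over all members and -0.097 over the other types. With edgeR 0 were lower at 1 to 3 h, and those medians were -0.23 and -0.13. A pseudocount of 10 gave medians of -0.86 over all members and -0.87 over the other types at 21 to 27 h and -0.82 for type IV at 4 to 8 h, and a pseudocount of 0.1 gave 1 member higher at 15 to 20 h. Single libraries by hour gave 6 higher and 10 lower at 1 to 3 h, 7 higher at 15 to 20 h, 5 higher at 21 to 27 h and 7 rising from 4 to 8 h to 21 to 27 h. A log2 change above 1 in size was met by 0 of the falls at 1 to 3 h and by 3 of the rises at 4 to 8 h. The causes of these moves were not tested beyond the filter.

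Leaving out 1 starved library or 1 Cycle at a time gave 0 to 4 members lower at 1 to 3 h, 1 to 2 higher at 15 to 20 h, a median of -0.45 to -0.35 over all members at 4 to 8 h and of -1.19 to -0.87 for type IV. The count of 0 came without the library taken 1 h before serum in Cycle 2, and the count of 1 without the 0 h library of Cycle 1. A fit on 1 Cycle alone has no residual spread, so it gave medians and no calls. For members with a mean value under 20, the late values are near those of a few reads, and depth limits them.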
